A study of Mus musculus with 2 samples.

Results

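The insulin-like growth factor (IGF) genes described here are the ligands Igf1 and Igf2, the receptor Igf1r, and the binding proteins Igfbp2, Igfbp3, Igfbp4, Igfbp5, Igfbp6 and Igfbp7. They were found by symbol, and each of the 9 matched 1 row among the 32285 genes counted. The values are single-cell RNA counts from wild-type mouse knee cartilage, in 1 library made after sham surgery and 1 made after DMM. DMM is destabilization of the medial meniscus, an operation used to bring about osteoarthritis in the mouse knee. Each library pooled the cells of 3 mice, so the spread between animals could not be seen and the libraries could not be tested against each other. Live cells that lacked the leukocyte antigen CD45, the erythroid antigen Ter119 and the endothelial antigen CD31 had been sorted after digestion with collagenase and Dispase. The age and sex of the mice and the time after surgery are not given in the sources used here.

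The sham library held 11362 cell barcodes and the DMM library 11076, of which 24 occurred in both. After filtering, 9529 cells remained in each library, with a median of 8064 UMIs (molecules counted) per cell in sham and 7859 in DMM. Clustering, made without the IGF genes and their pathway so that their levels could not shape the groups, gave 25 clusters. Of these, 19 were connective tissue, with 7633 sham and 8423 DMM cells, and 17 of those had at least 50 cells in each library. The labels call the cells superficial cells, and 1505 sham cells (15.8%) and 1636 DMM cells (17.2%) fell into the 2 clusters named superficial zone chondrocyte-like. A further cluster of 473 sham and 406 DMM cells had superficial zone markers but did not meet the naming rule. Erythroid-like cells made up 1136 of the sham cells and 512 of the DMM cells despite the Ter119 gate. Their level of a gene is given beside low values, as the level in cells of another type in the same library.

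Populations are called by their leading gene. The cartilage populations were A2m (chondrocyte-like), Ihh (hypertrophic chondrocyte-like), and Krt17 and Casr (both superficial zone chondrocyte-like). Named fibroblast populations were Clic5 (synovial lining-like) and Dpp4 (sublining or adventitial-like). Bone and vessel wall were represented by Ptprz1 and Car3 (both osteoblast lineage-like), Esm1 (marrow stromal-like), and Myh11 and Abcc9 (both mural-like, the smooth muscle cells and pericytes of vessel walls). The other 6 stayed unnamed, because no marker list met the naming rule. Of these, Sfrp2, Kcnj15, Ccl7 and Npy were rich in the type I collagen gene Col1a1, at 10419, 6379, 3506 and 2560 CPM in sham (CPM are a gene's UMIs scaled to the same total of all UMIs in each library and population). Pappa2 was rich in the cartilage collagen gene Col2a1 (12823 CPM in sham), and Msmp in the lubricin gene Prg4 (24889 CPM in sham). The best marker list of Msmp was that of superficial zone chondrocytes, with 6 of 10 markers passing but none among its 10 leading genes. Pappa2 and Esm1 are also genes of the IGF pathway list used further on.

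IGF-I and IGF-II act through the receptor tyrosine kinase IGF1R, which signals mainly through the PI3K and MAPK pathways. The IGF binding proteins hold the ligands in the blood and in the extracellular matrix and can limit or prolong their access to the receptor, and proteases such as PAPP-A release the ligands by cutting the binding proteins. In cartilage, IGF-I is known as a stimulus for proteoglycan and collagen II synthesis by chondrocytes.

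The sequences just upstream of 3 of the genes are shown because Igfbp4 and Igfbp5 were the members whose levels were most alike across populations, and Igfbp6 was the one most often higher in DMM. Each is the 250 bases before the RefSeq start of the gene (GRCm38.p6), 5′ to 3′ on the gene's own strand, with motif matches in capitals. Igfbp4 lies at chr11:99040994-99041243 on the plus strand, Igfbp5 at chr1:72874866-72875115 on the minus strand, and Igfbp6 at chr15:102143936-102144185 on the plus strand.
Igfbp4: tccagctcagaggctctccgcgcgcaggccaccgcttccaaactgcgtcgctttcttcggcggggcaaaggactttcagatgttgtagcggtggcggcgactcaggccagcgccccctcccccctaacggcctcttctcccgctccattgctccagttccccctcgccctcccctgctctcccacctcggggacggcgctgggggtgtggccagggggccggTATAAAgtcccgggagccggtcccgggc
Igfbp5: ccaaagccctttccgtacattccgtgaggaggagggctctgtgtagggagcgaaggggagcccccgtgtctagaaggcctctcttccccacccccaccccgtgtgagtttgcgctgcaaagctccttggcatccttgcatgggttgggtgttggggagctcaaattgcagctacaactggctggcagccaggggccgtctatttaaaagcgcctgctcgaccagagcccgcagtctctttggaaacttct
Igfbp6: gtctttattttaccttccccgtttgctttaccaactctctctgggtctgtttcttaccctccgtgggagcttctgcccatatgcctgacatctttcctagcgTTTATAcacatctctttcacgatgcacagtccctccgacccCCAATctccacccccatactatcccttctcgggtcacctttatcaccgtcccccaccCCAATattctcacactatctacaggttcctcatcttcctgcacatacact
The motifs searched on both strands were the TATA box TATAAA, the GC box GGGCGG, the AP-1 site TGANTCA, the E box CACGTG and the CCAAT box CCAAT. The Igfbp4 window held 1 TATA box and had 69.2% G and C with 22 CpG sites. The Igfbp6 window held 1 TATA box on the opposite strand and 2 CCAAT boxes, with 49.6% G and C and 7 CpG sites. The Igfbp5 window held none of the 5, which says only that these letters are not in this window, with 58.8% G and C and 10 CpG sites. Among 32851 RefSeq windows of this length, 12.4% held the TATA box, 32.7% the GC box, 6.7% the AP-1 site, 6.0% the E box and 33.8% the CCAAT box. The median window had 52.4% G and C and 6 CpG sites. All 9 genes had a window; the receptor's, at chr7:67952007-67952256, was the richest of the members in CpG sites, with 42 and 2 GC boxes.

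Levels are CPM of the UMIs summed over the cells of a population in 1 library. A gene was called higher or lower in DMM where the ratio of its CPM was at least 1.5-fold and it had at least 50 UMIs in both libraries together, which is a size and not a test. Over the 17 populations, 107 of the 153 gene and population pairs of the 9 members had enough UMIs. Of these, 22 were called lower in DMM and 10 higher, and 75 were neither. Among all genes, 12.7% of such pairs were called lower and 5.31% higher, and the members' shares were 20.6% and 9.35%. The median gene of a population had a log2 ratio between -0.2 and -0.05, so that values near 0 lay a little above the median gene. With each population scaled to its median gene, 18 pairs of the members were lower and 17 higher. The shares of all genes under that scaling are not given here, so these 2 counts cannot be set against 12.7% and 5.31%. In connective tissue cells pooled, 1 member was called lower, Igf2 (15.5% of all genes), and 1 higher, Igfbp6 (4.21% of all genes).

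**Figure D1:**
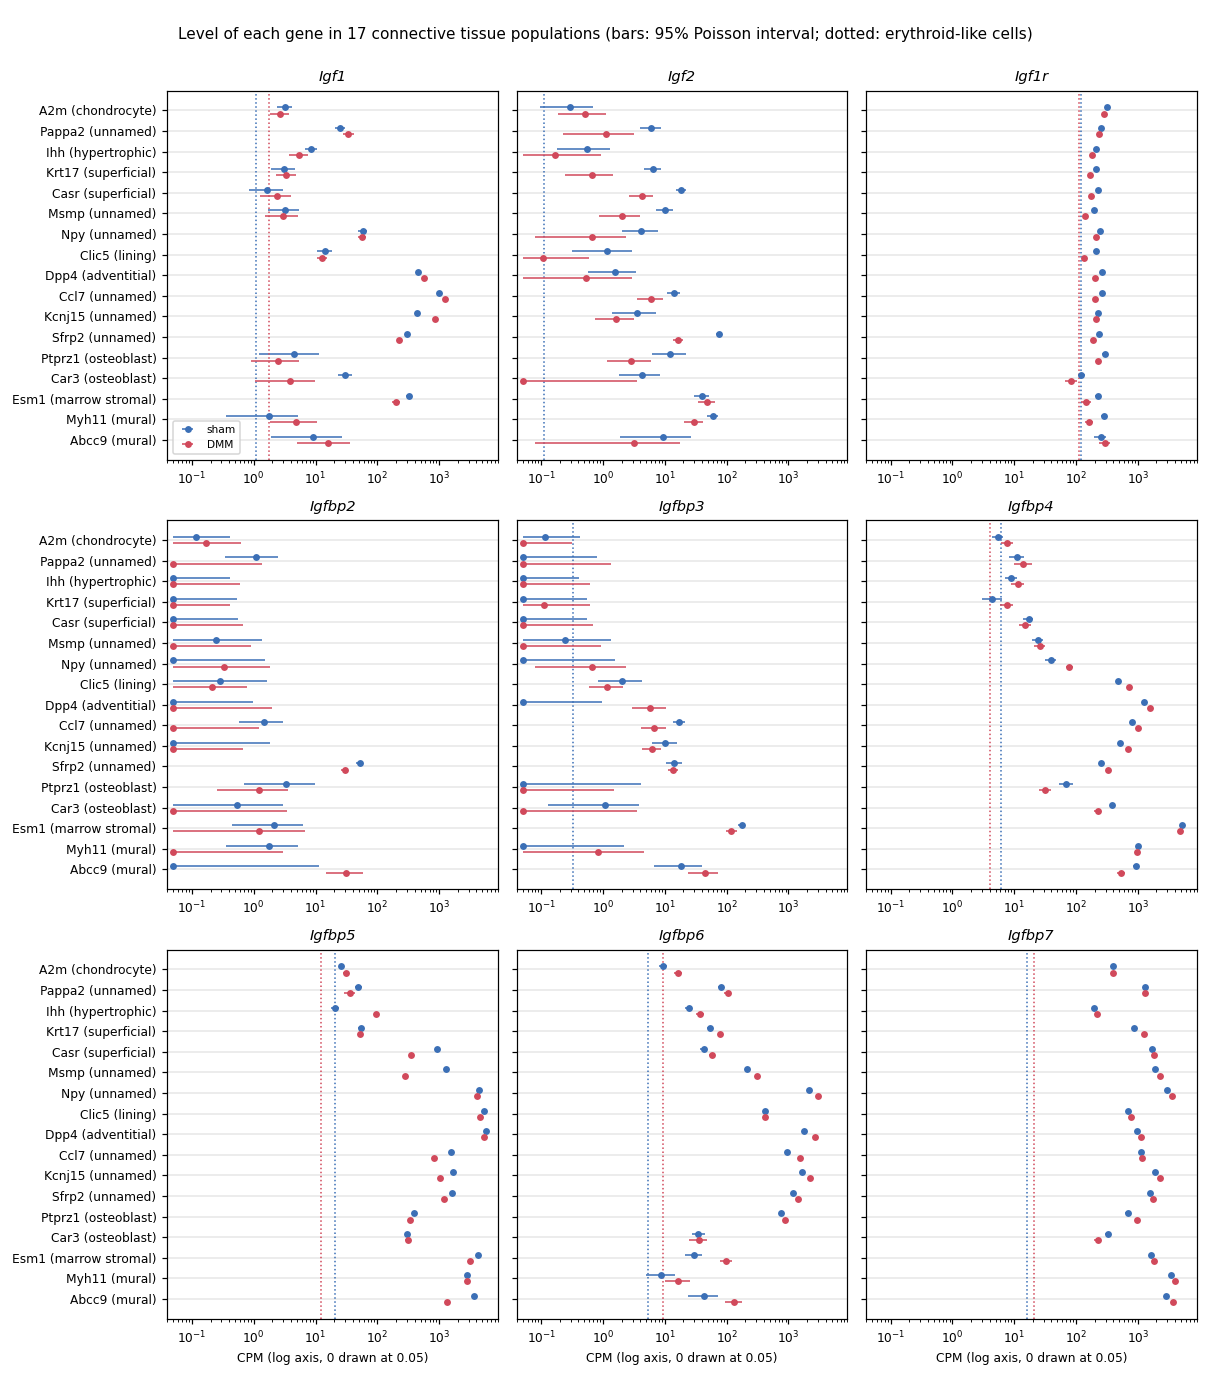
CPM of each of the 9 genes (log axis, 0 drawn at 0.05) in the 17 connective tissue populations, sham in blue and DMM in red, with 95% Poisson intervals and the level in erythroid-like cells as dotted lines. Igf1r and Igfbp7 lay within a narrow span, while Igf1, Igfbp4 and Igfbp5 ranged over a wide span, with the A2m and Krt17 cartilage populations among the lowest.

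Igf1, the ligand made in liver and in many connective tissues, is encoded at chr10:87858265-87937042 (GRCm38, plus strand). Its level was 999 CPM in sham and 1224 in DMM in the Ccl7 population, 460 and 565 in Dpp4, 436 and 869 in Kcnj15, 322 and 204 in Esm1, and 305 and 224 in Sfrp2. These 5 populations lay above all 12 others in both libraries, the next being Npy with 57.9 and 57.3 CPM. The Ccl7, Dpp4 and Kcnj15 populations were the top 3 in both libraries, and 84.0% of sham and 84.7% of DMM cells of the Ccl7 population carried at least 1 Igf1 UMI.

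The cartilage populations held little Igf1. The Ihh population had 8.52 CPM in sham (6.71 to 10.7) and 5.41 in DMM (3.73 to 7.6), above the erythroid-like cells. The Casr population had 1.66 CPM in sham and 2.38 in DMM, Krt17 3.07 and 3.34, and A2m 3.2 and 2.66, against 1.1 and 1.79 in erythroid-like cells. The intervals of the Casr values, 0.83 to 2.98 and 1.27 to 4.07, included the erythroid level of their own library. The Col2a1-rich Pappa2 population stood higher, with 25.3 CPM in sham and 34.0 in DMM.

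Between libraries, Igf1 had enough UMIs in 12 populations and was called higher in 1 and lower in 3. The Kcnj15 population gave 1.99 times the sham level in DMM (95% interval 1.85 to 2.14), and with every cell thinned to 2000 UMIs the share of its cells with Igf1 was 38.8% in sham and 58.4% in DMM. The marrow stromal-like Esm1 population was lower in DMM, at a ratio of 0.633 (0.527 to 0.757). Its Prg4 level was 433 CPM in sham and 6884 in DMM, and the part of other cells in its ratios was not tested. In the Car3 population the ratio was 0.126 (0.0333 to 0.342) on 57 UMIs in sham and 4 in DMM. The Ihh population's ratio of 0.635 (0.409 to 0.968) rested on 76 and 33 UMIs and turned to a log2 ratio of 0.21 when the called doublets were kept. In connective tissue cells pooled, the level was 126 CPM in sham and 157 in DMM, which is a log2 ratio of 0.32. Igf1 overlaps the antisense gene Igf1os, and whether counting used the strand is not given in the sources used here.

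Igf2, the ligand best known for fetal growth and expressed from the paternal allele, lies at chr7:142650766-142666816 on the minus strand, where it overlaps Igf2os, Gm49394 and Mir483. It was sparse, with 793 UMIs in sham and 285 in DMM over all connective tissue cells. The Sfrp2 population had 74.9 CPM in sham (interval 66.3 to 84.3) and 16.2 in DMM (13.4 to 19.3), the Myh11 mural-like cells 59.7 and 29.5, and the Esm1 marrow stromal-like cells 39.7 and 48.2. Those 3 were the highest in both libraries. Erythroid-like cells held 1 Igf2 UMI in sham and 0 in DMM, a count of 0 that allows up to 0.766 CPM (3 UMIs).

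Igf2 was called lower in DMM in 5 of the 6 populations with enough UMIs. The ratio was 0.104 (0.0362 to 0.245) in Krt17, 0.216 (0.173 to 0.268) in Sfrp2, 0.232 (0.142 to 0.365) in Casr, 0.431 (0.241 to 0.734) in Ccl7 and 0.494 (0.328 to 0.73) in Myh11. The exception was Esm1, at 1.21 (0.789 to 1.86). Among the superficial zone chondrocyte-like cells of the Casr population, the level was 18.1 CPM in sham and 4.22 in DMM, and 11.5% of sham cells against 2.82% of DMM cells held a UMI. In Krt17 it was 6.44 and 0.669 CPM, on 44 and 6 UMIs. The pooled level over connective tissue was 10.4 CPM in sham against 3.75 in DMM, which is 2.77-fold lower (interval 2.41 to 3.18). The cells with Igf2 were a minority throughout: in the Sfrp2 population 19.6% of sham and 5.51% of DMM cells had a UMI.

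Igf1r, the receptor, spans 281 kb at chr7:67952827-68233668. Its level was the most even of the members over populations, from 122 CPM (Car3) to 319 CPM (A2m) in sham and from 83.1 (Car3) to 291 (Abcc9) in DMM. Neighbours in that order mostly could not be told apart, since intervals overlapped in 15 of 16 neighbouring pairs in sham and 14 of 16 in DMM. The A2m chondrocyte-like cells had 319 CPM in sham and 287 in DMM, with Igf1r in 43.1% and 40.2% of cells thinned to 2000 UMIs. Erythroid-like cells had 122 and 112 CPM, with a UMI in 40.8% and 39.6% of cells without thinning. Those cells had a median of 6521 and 6443.5 UMIs, so these shares cannot be set against the thinned ones of A2m.

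The ratio of Igf1r was under 1 in 16 of 17 populations, with the interval under 1 in 14. It was called lower in 3, at 0.582 (0.491 to 0.688) in Myh11, 0.642 (0.517 to 0.794) in Esm1 and 0.652 (0.595 to 0.716) in Clic5, and higher in none. The Prg4 difference of the Esm1 population, given with Igf1, applies to its Igf1r ratio as well. The pooled ratio was 0.787 (0.771 to 0.804), a log2 ratio of -0.35. Long genes as a class moved in the same way: the median log2 ratio in connective tissue cells was -0.42 for the 2312 genes of 100 kb or more, -0.16 for all genes and 0.1 for the 4491 genes under 10 kb. The part of gene length in the values of Igf1r was not tested.

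Igfbp2 and Igfbp5 are neighbours on chromosome 1, Igfbp2 at chr1:72824503-72852474 on the plus strand and Igfbp5 at chr1:72857932-72874884 on the minus strand, 5457 bases apart. They shared little else here. Igfbp2, which binds IGF-II with preference and is best known from the circulation, had 215 UMIs in sham and 245 in DMM over all connective tissue cells, and 189 and 226 of these were in the Sfrp2 population. That population had 51.5 CPM in sham against 29.7 in DMM, which is 1.73-fold lower (interval 1.42 to 2.11). Only 3.56% of its sham cells and 2.62% of its DMM cells held a UMI, and 1 DMM cell held 28.3% of the library's UMIs there. After thinning to 2000 UMIs the log2 ratio turned from -0.79 to 0.13.

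A finer clustering, chosen after the data were seen, split off a tendon or ligament-like cluster of 217 sham and 303 DMM cells with the tendon gene Tnmd. Igfbp2 stood at 97.2 CPM in sham and 85.0 in DMM there, a ratio of 0.875 (0.679 to 1.13), in 7.37% and 4.95% of the cells. Outside the Sfrp2 population, the only level whose interval lay wholly above 10 CPM was that of the Abcc9 mural-like cells in DMM, 31.3 CPM on 10 UMIs against 0 in sham. Erythroid-like cells held no Igfbp2 UMI in either library.

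Igfbp3, the main carrier of IGF-I in blood, is at chr11:7206086-7213923 on the minus strand. It was a gene of the marrow stromal-like Esm1 population, with 174 CPM in sham (153 to 197) and 119 in DMM (97.0 to 145), in 41.7% and 38.4% of cells. The Abcc9 population followed with 18.3 and 43.8 CPM on 6 and 14 UMIs, then Ccl7 with 16.8 and 6.65 and Sfrp2 with 14.2 and 13.7. It was called lower in 2 of 4 populations, Ccl7 at a ratio of 0.396 (0.23 to 0.653) and Kcnj15 at 0.62 (0.347 to 1.14), an interval that includes 1. The cartilage populations A2m, Ihh, Krt17 and Casr, and the unnamed Msmp and Pappa2, held at most 2 UMIs each in a library.

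Igfbp4, a binding protein that inhibits IGF action until PAPP-A cuts it, lies at chr11:99041244-99054392. Its highest level was again in the Esm1 marrow stromal-like cells, 5152 CPM in sham and 4745 in DMM, with a UMI in 99.0% and 99.2% of the cells. Dpp4 followed with 1272 and 1595, Myh11 with 991 and 959, Abcc9 with 947 and 539, and Ccl7 with 813 and 1004. At the other end, Krt17 had 4.39 and 7.69 CPM and A2m 5.42 and 7.72, against 6.17 and 4.09 in erythroid-like cells.

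Igfbp4 was called higher in 3 of 17 populations and lower in 3. The synovial lining-like Clic5 cells had 477 CPM in sham and 728 in DMM, for a ratio of 1.52 (1.44 to 1.61), and the share of cells with a UMI was 69.2% and 80.6%. Npy had 38.7 and 78.2 CPM, a ratio of 2.02 (1.58 to 2.59). That difference was past 1.5-fold in 13 of 14 alternatives and gone (log2 ratio -0.01) when cells needed 1000 genes. Krt17, at 1.75 (1.13 to 2.79), lay near the erythroid level in sham. The 3 lower calls were Abcc9 at 0.569 (0.469 to 0.687), Car3 at 0.605 (0.52 to 0.701), and Ptprz1 with 69.8 and 31.4 CPM. The Ptprz1 call rested on 1 sham cell with 74.6% of the UMIs: with the cell richest in Igfbp4 left out of both libraries, the log2 ratio was 0.56 in place of -1.15.

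**Figure D2:**
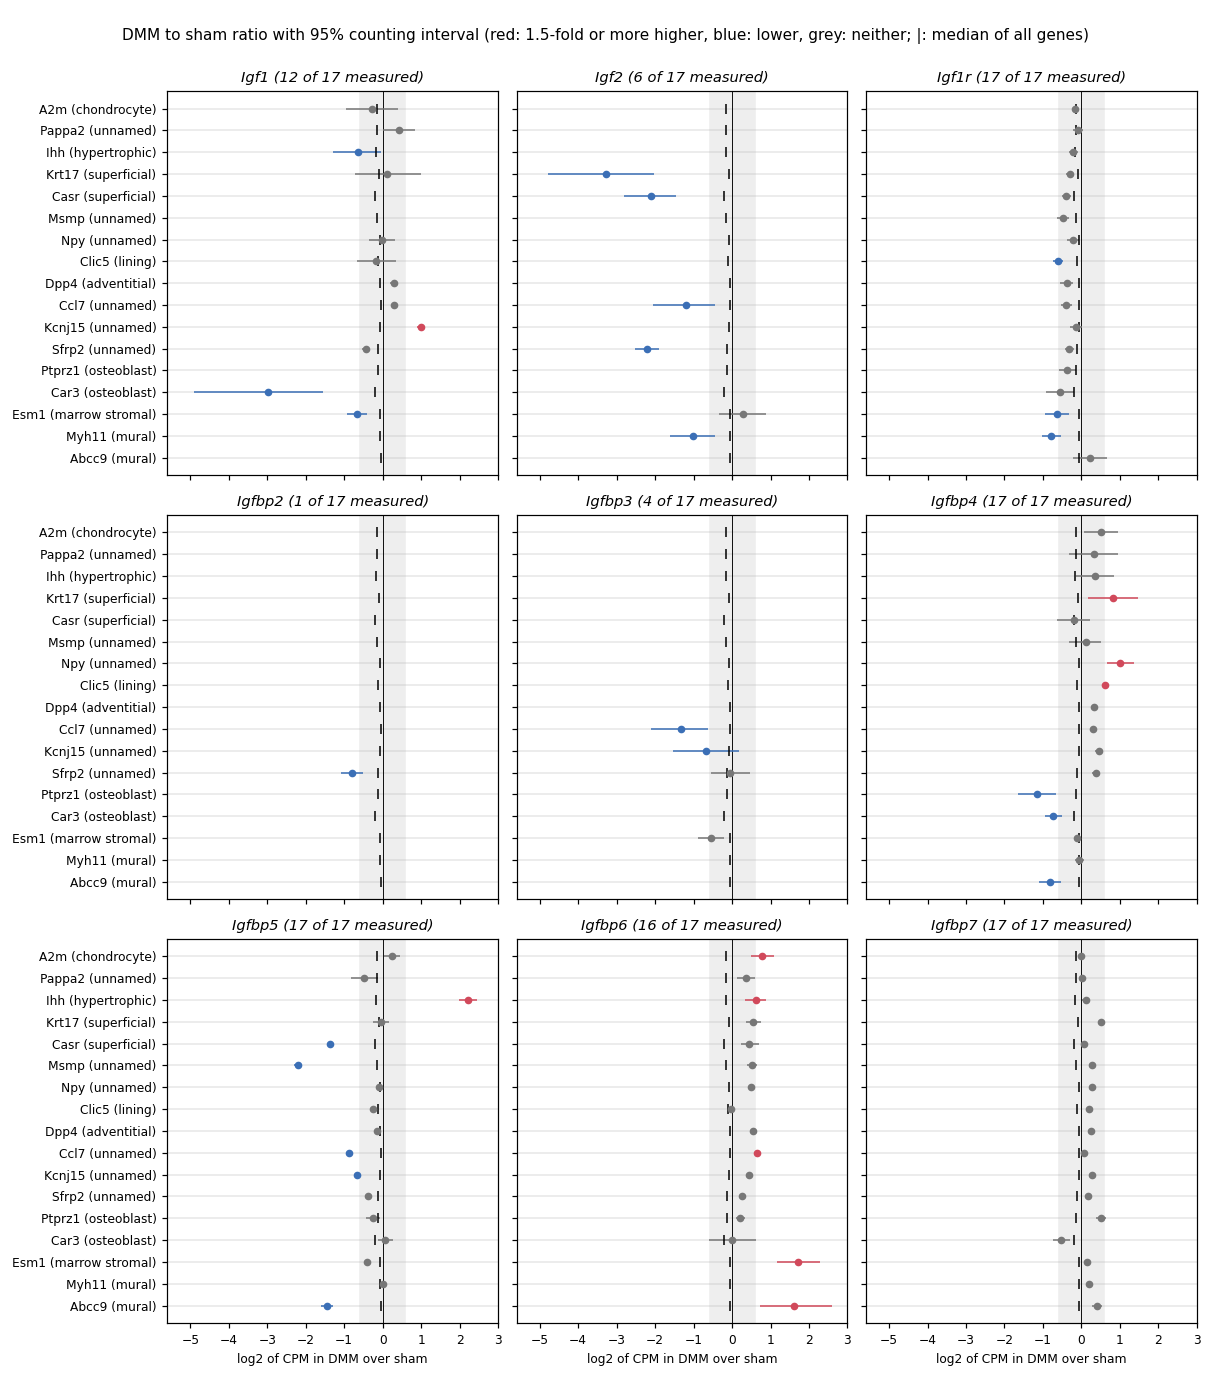
Log2 ratio of CPM in DMM over sham with 95% counting intervals for each gene in each population with at least 50 UMIs, the band of less than 1.5-fold in grey and the median of all genes as a vertical tick. Igf2, Igf1r and Igfbp5 lay mostly left of 0, and Igfbp6 and Igfbp7 mostly right of it. Igfbp5 had the values -2.21 in Msmp and 2.22 in Ihh.

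Igfbp5, which binds strongly to extracellular matrix and is known in bone, tendon and fibrous tissue, was highest in Dpp4, Clic5 and Npy. Dpp4 stood at 5792 CPM in sham and 5240 in DMM, Clic5 at 5320 and 4504, and Npy at 4412 and 4104. Those 3 came first in both libraries and none was past 1.5-fold. Esm1 followed with 4217 and 3183 CPM. The A2m, Ihh, Krt17 and Pappa2 populations lay between 20.6 and 54.4 CPM in sham, against 20.4 in erythroid-like cells. Pooled over connective tissue the level was 1225 CPM in sham and 1236 in DMM, for a ratio of 1.01 (1.00 to 1.02), while the ratios of single populations ran from 0.217 to 4.65. With each population given equal weight, the log2 ratio was -0.4.

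The ratio of Igfbp5 was below 1 in 13 of 17 populations, with the interval below 1 in 12, and above 1 in 3. The lower calls of Igfbp5, in 5 of 17 populations, included the superficial zone. The Casr population had 923 CPM in sham and 354 in DMM, for a ratio of 0.384 (0.364 to 0.404), and 45.7% of its sham cells against 29.6% of its DMM cells held a UMI (29.8% and 14.9% after thinning). The other superficial population, Krt17, had 54.4 and 53.0 CPM. Msmp had 1284 and 278, a ratio of 0.217 (0.203 to 0.231), Ccl7 1537 and 834, at 0.543 (0.518 to 0.568), and Kcnj15 1664 and 1049, at 0.631 (0.604 to 0.659). The Abcc9 mural-like cells had 3713 and 1359 CPM, at 0.366 (0.327 to 0.409), whereas the Myh11 mural-like cells had 2808 in both. The Msmp ratio was less far from 1, at a log2 ratio of -0.94 in place of -2.21, when the IGF genes were allowed to shape the clusters.

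In the Casr and Msmp populations a minority of cells held most of the Igfbp5. Cells with 10 or more Igfbp5 UMIs, a class set after the data were seen, made up 15.2% of the Casr population in sham (129 of 847) and 6.69% in DMM (45 of 673), and held 87.8% and 81.2% of its Igfbp5 UMIs. In Msmp they made up 18.4% (87 of 473) and 7.14% (29 of 406). The level of the superficial zone gene Prg4 in these Casr cells was 18782 CPM in sham and 31742 in DMM, against 63462 and 78400 in the Casr cells without Igfbp5. Their level of Col1a1, the type I collagen gene of fibrous tissue, was 96.9 and 87.0 CPM against 41.4 and 42.6. These Col1a1 values are low, as erythroid-like cells had 39.4 CPM in sham and 77.9 in DMM. The fibroblast collagen gene Col3a1 stood at 112 and 382 CPM in the same Casr cells, against 26.5 and 59.9 in those without Igfbp5. Erythroid-like cells without Igfbp5 had 15.2 and 41.1 CPM of Col3a1. Igfbp6 stood at 105 and 203 CPM in these Casr cells, against 21.7 and 44.1 in those without Igfbp5. The median cell with 10 or more UMIs of Igfbp5 had 5666 UMIs of all genes in sham and 7717 in DMM, against 7352.5 and 7132.5 without it. In Msmp, Col1a1 was 1267 and 1485 CPM in the cells with 10 or more UMIs and 171 and 516 in those with none. Whether such cells belong to the superficial zone or to a neighbouring tissue was not tested.

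**Figure D3:**
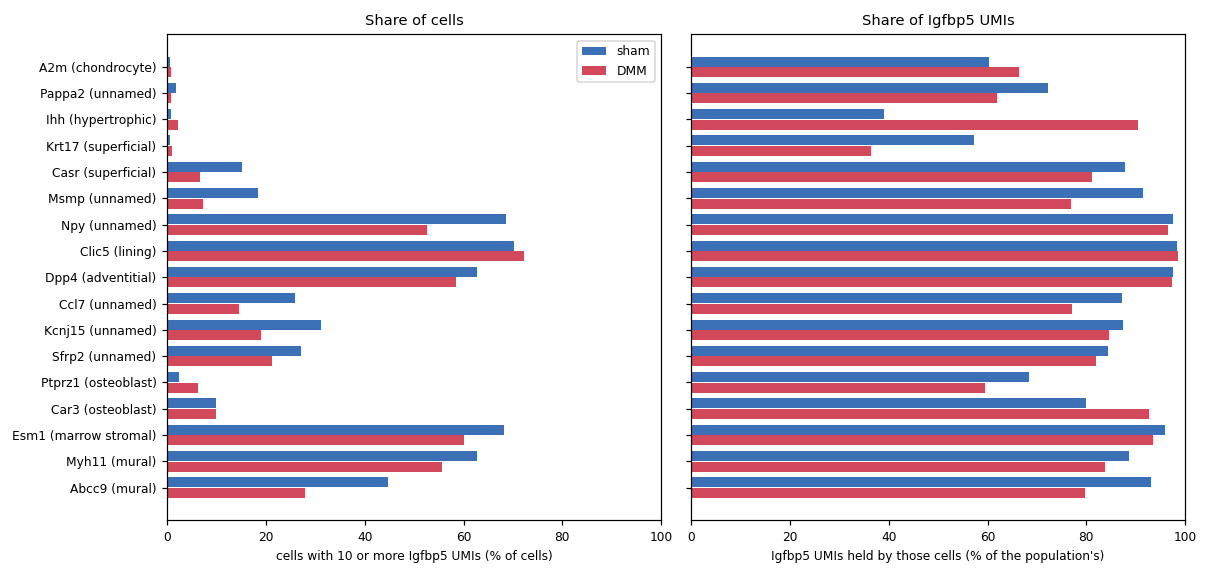
Cells with 10 or more Igfbp5 UMIs as a percent of the cells of each population (left) and the percent of the population's Igfbp5 UMIs that they held (right), sham in blue and DMM in red. In the Casr and Msmp populations the share of such cells was 15.2% and 18.4% in sham and 6.69% and 7.14% in DMM, while in Ihh the few such DMM cells held 90.4% of the UMIs.

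The single higher call of Igfbp5 was in the Ihh hypertrophic chondrocyte-like cells, with 20.6 CPM in sham and 95.9 in DMM, for a ratio of 4.65 (3.93 to 5.52). It was not spread over the population. A UMI was found in 13.7% of sham and 14.2% of DMM cells, near the 10.6% and 8.79% of erythroid-like cells. In DMM, 8 of 358 cells held 90.4% of the UMIs, and 1 cell with 204 UMIs held 34.9%. These 8 cells also carried the fibroblast collagen gene Col3a1 at 1095 CPM, against 70.4 in the cells without Igfbp5. With called doublets kept, the log2 ratio was 0.38 in place of 2.22, below 1.5-fold, while it was past 1.5-fold in 13 of 14 alternatives.

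Igfbp6, which prefers IGF-II and is a small gene of 5.15 kb at chr15:102144362-102149511, was highest in Npy, Dpp4 and Kcnj15 in both libraries. Npy had 2158 CPM in sham and 3039 in DMM, Dpp4 1816 and 2646, Kcnj15 1655 and 2257, Sfrp2 1191 and 1425, and Ccl7 955 and 1511. A2m had 9.44 and 16.3 CPM and Myh11 8.78 and 16.4, against 5.29 and 9.45 in erythroid-like cells.

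The ratio of Igfbp6 was above 1 in 15 of the 16 populations with enough UMIs, with the interval above 1 in 14. It was called higher in 5 and lower in none, and the median ratio was 1.42. Ccl7 gave 1.58 (1.52 to 1.65), with a UMI in 69.0% of sham and 83.2% of DMM cells after thinning to 2000 UMIs. Esm1 gave 3.28 (2.23 to 4.88) on 29.8 and 97.7 CPM, but 1 sham cell held 81.0% of the 42 sham UMIs, and in the same population Prg4 stood at 433 CPM in sham and 6884 in DMM. Abcc9 gave 3.07 (1.65 to 6.09) on 14 and 42 UMIs. A2m gave 1.73 (1.39 to 2.14) at levels near the erythroid one, and erythroid-like cells themselves gave 1.79 (1.13 to 2.80), and the part of free RNA in the A2m ratio was not tested. Ihh gave 1.53 (1.26 to 1.85) on 24.2 and 37.1 CPM, with a UMI in 2.84% of sham and 2.51% of DMM cells after thinning. The 8 DMM cells of Ihh with 10 or more Igfbp5 UMIs held Igfbp6 at 618 CPM, against 10.1 in the DMM cells without Igfbp5. The lining-like Clic5 cells had 422 and 417 CPM.

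Pooled over connective tissue, Igfbp6 was 381 CPM in sham and 674 in DMM, for a ratio of 1.77 (1.75 to 1.80). The makeup of the pool also differed: the Sfrp2 and Kcnj15 populations, where Igfbp6 was high, had 562 and 260 cells in sham and 1143 and 660 in DMM, while Dpp4 and Ccl7, where it was also high, had 492 and 680 in sham and 265 and 503 in DMM. With equal weight for each population the log2 ratio was 0.46 in place of 0.82, under 1.5-fold. Short genes had a median log2 ratio above that of all genes in each of the 17 populations, as given for the receptor in the pooled cells, and the part of gene length in these values was not tested.

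Igfbp7, a secreted protein of the vessel wall that binds IGFs weakly, lies at chr5:77349240-77408041, where it overlaps Polr2b on the opposite strand. It was found in every population above the erythroid level of 16.1 CPM in sham and 21.2 in DMM. The Myh11 mural-like cells had 3448 CPM in sham and 3982 in DMM, Npy 2925 and 3539, and Abcc9 2845 and 3770. The lowest were the Ihh hypertrophic chondrocyte-like cells with 199 and 217. The superficial populations stood at 1725 and 1823 (Casr) and 879 and 1262 (Krt17), above the 397 and 398 of the A2m chondrocyte-like cells. No population was past 1.5-fold. The ratio was above 1 in 15 of 17 populations, up to 1.44 (1.39 to 1.48) in Krt17, and below 1 only in Car3, at 0.696 (0.596 to 0.81).

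Set out by population, 11 of the 17 had 2 or more member calls, 4 had 1 and 2 had none. In Ccl7, 3 of 8 members with enough UMIs were called lower (Igf2, Igfbp3 and Igfbp5) and 1 higher (Igfbp6), where 8.85% of all genes were lower and 6.29% higher. In Kcnj15, 2 of 7 were lower and 1 higher (all genes 9.19% and 6.62%). In Sfrp2, 2 of 9 were lower and 0 higher (13.5% and 4.33%). In the Casr superficial population 2 of 6 were lower and 0 higher (17.5% and 3.33%), and in Krt17 1 of 7 was lower and 1 higher (10.2% and 4.1%).

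The lining-like Clic5 cells had 1 of 6 lower and 1 higher (13.5% and 6.73%), and the hypertrophic Ihh cells 1 of 6 lower and 2 higher (13.3% and 2.37%). Among mural-like cells, Myh11 had 2 of 5 lower and 0 higher (12.1% and 6.37%), and Abcc9 2 of 5 lower and 1 higher (14.8% and 9.62%). The Esm1 marrow stromal-like cells had 2 of 8 lower and 1 higher (13.7% and 13.6%). The Car3 osteoblast-like cells had 2 of 6 lower and 0 higher (20.6% and 4.53%). With so few members in a population, these shares are descriptions. The Dpp4 and Pappa2 populations were those without a call.

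Across populations, the members formed a few patterns. Over 34 points (17 populations in 2 libraries, which share libraries and depth), the highest Pearson correlation of log2(CPM + 1) between members was that of Igfbp4 and Igfbp5, r = 0.80, with 0.78 within sham and 0.84 within DMM. Igfbp3 and Igfbp4 followed at 0.72. Igf1 and Igf1r, ligand and receptor, gave 0.11. The genes with patterns most like a member were taken over 42 points of 21 populations among 7799 genes. For Igf1 they were Fndc1 (0.916), Apod (0.91) and Svep1 (0.908). For Igfbp4 they were Fstl1 (0.948), Ebf1 (0.943) and Slfn5 (0.937), and for Igfbp5 Itih5 (0.932), Rarres2 (0.915) and Ece1 (0.913). For Igfbp6 they were Fez1 (0.919), Hacd4 (0.917) and the collagen gene Col3a1 (0.916), and for Igfbp7 Bcl9l (0.95), Zbtb4 (0.941) and Cdc42ep5 (0.936).

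For Igf1r the 3 were Myo9a (0.911), Ctnna1 (0.903) and Cdc37l1 (0.899), and for Igfbp3 Gpr176 (0.858), Lpl (0.858) and Fst (0.842). The sparse members had weaker matches. Igf2 had Tbx3 (0.793), Rgs7bp (0.771) and Cacnb4 (0.764), and Igfbp2 had Ostn (0.747), Nppc (0.614) and Epha3 (0.582). These are descriptions over points that share their library.

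The rest of the pathway was followed in 59 other genes. Over the 17 populations, 677 pairs had enough UMIs, of which 18.5% were called lower and 3.4% higher, beside the 12.7% and 5.31% of all genes. Of the other receptors, Igf2r, which clears IGF-II, had 165 CPM in sham and 134 in DMM in connective tissue cells and passed 1.5-fold in no population, and the insulin receptor gene Insr had 26.7 and 19.2 CPM and was lower in 7 of 16. Other ligand, carrier and binding protein genes (Igfals, Ins2, Igfbpl1 and Igfbp1 among them) reached 50 UMIs in no population, and Igfbp1 had 0 UMIs in both libraries of connective tissue cells.

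The binding-protein proteases and their inhibitors had 18 of 69 pairs lower and 6 higher (26.1% and 8.7%, all genes 12.7% and 5.31%). Pappa, which encodes PAPP-A, was concentrated in the same Esm1 population as its target Igfbp4, with 1721 CPM in sham and 1393 in DMM, and over connective tissue it stood at 77.9 and 38.7 CPM. It was called lower in 6 of 11 populations. Htra1, a secreted serine protease that can cut binding proteins, had 364 and 552 CPM and was higher in 3 of 17 and lower in none. Adam9 (51.6 and 45.2 CPM) was lower in 3 of 16, and Adam12 (49.1 and 31.3 CPM), highest in the Car3 osteoblast-like cells, was lower in 4 of 13 and higher in 2.

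The growth hormone axis, which drives Igf1 in liver, had 20 of 82 pairs lower and 1 higher (24.4% and 1.22%, all genes 12.7% and 5.31%). The receptor gene Ghr had 158 CPM in sham and 111 in DMM, with 2415 and 1696 in Esm1, and was lower in 7 of 16 populations. Jak2 was lower in 9 of 17, Stat5b in 2 of 16 and the feedback inhibitor Socs2 in 0 of 16. The group of 24 receptor adaptor and PI3K-AKT-mTOR genes had 49 of 369 pairs lower and 5 higher. Its share of lower pairs, 13.3%, was near the 12.7% of all genes, and its share of higher pairs was 1.36% beside 5.31%. In it, Pik3r1 was lower in 5 of 17, Grb10 in 1 of 17, and Foxo1 and Rheb in none.

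The group of Igf2 mRNA-binding proteins and imprinted genes had 18 of 39 pairs lower and 1 higher (46.2% and 2.56%, all genes 12.7% and 5.31%). The imprinted H19, next to Igf2, had 13.5 CPM in sham and 12.8 in DMM, with 60.5 and 38.5 in the Sfrp2 population where Igf2 was highest in sham. H19 was called lower in 1 of 4 populations, Sfrp2. It was called higher in the Pappa2 population, at 42.1 and 68.4 CPM, the one higher call of the group. Most lower calls of the group were those of Plagl1, in 9 of 16 populations, and of Igf2bp2, in 8 of 13. In the group of the CCN genes, once grouped with the binding proteins, 13 of 85 pairs were lower and 10 higher (15.3% and 11.8%). Among its genes, Ccn1 had 866 and 497 CPM and was lower in 6 of 17, and Ccn3 was lower in 5 of 9. Ccn5 had 21.4 and 56.2 CPM and was higher in 6 of 10. Ccn2, at 2045 and 1585 CPM, was lower in 2 of 17 and higher in 1.

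**Figure D4:**
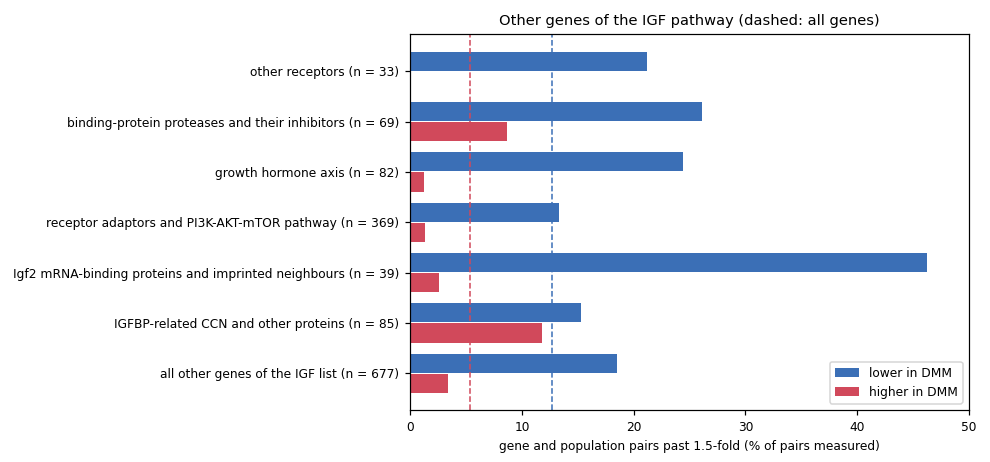
Percent of gene and population pairs with at least 50 UMIs that were at least 1.5-fold lower (blue) or higher (red) in DMM, for 6 groups of the other IGF pathway genes and for all of them, with the shares of all genes as dashed lines (12.7% and 5.31%). Lower calls exceeded the dashed line most in the group drawn as Igf2 mRNA-binding proteins and imprinted neighbours, 46.2% of 39 pairs. Most of these calls were those of Plagl1 and Igf2bp2, and not of H19, the gene next to Igf2.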

How the data were processed

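The deposited matrices hold raw UMI counts per gene and cell barcode, written by Cell Ranger 7.1.0 per the file headers. The submitters' processing notes name Cell Ranger 3.0.1, Seurat and the build mm10, and which run made the matrices is not given in the sources used here. The whole-series CPM table has 6 columns that match no sample and was not used here.

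The filter asked for 500 genes per cell and no more than 10% mitochondrial UMIs (9992 sham and 9889 DMM cells passed), after which Scrublet's 463 and 360 predicted doublets were left out. After log-transformation of counts per 10000, the cells were clustered with scanpy 1.11.5 (2000 variable genes without the IGF genes, 30 principal components, 15 neighbours, Leiden resolution 1.0). A cluster took the name of its best marker list when the list's detected markers had a mean log2 fold over other cells of at least 0.75, at least 3 of them passed a log2 fold of 1.0 in at least 10% of cells, and either a marker stood among the 10 leading genes or at least 90% passed. It stayed unnamed where another list had more markers among those genes, or where it had few UMIs and no leading marker. Unnamed clusters with Serpinh1 in at least 50% of cells counted as connective tissue. These naming rules were chosen after the data were seen. The members, lists and named genes were chosen with earlier results of these data known. From the pathway list, the 4 genes with the most UMIs in each group were named, and for likeness the 3 genes with the highest correlation among those of at least 50 CPM in a population.

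UMIs were summed per population and library. Levels have exact Poisson intervals, ratios exact conditional binomial intervals and shares of cells exact binomial intervals, all at 95%, and they cover counting error only. With 1 library per group there was no test between sham and DMM. The ratio step was tested on simulated data.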

Additional observations from a re-analysis of the deposited data

Results flagged for a closer look

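For 3 genes the difference between libraries ran in opposite directions in different populations, each past 1.5-fold. Whether the populations differ in this was not tested, since there is 1 library per group. Igf1 had a log2 ratio of DMM over sham of 0.99 in the Kcnj15 population and -2.98 in the Car3 osteoblast lineage-like population, the latter on 57 UMIs in sham and 4 in DMM. Igfbp4 had 1.01 in the Npy population and -1.15 in the Ptprz1 osteoblast lineage-like population, and each changed sign under some alternatives. The Npy value kept its direction in 13 of 14 alternatives and was -0.01 with 1000 genes per cell. The Ptprz1 value kept its direction in 8 of 10. It was 0.27 with IGF genes among the variable genes and 0.56 without the top cells. Igfbp5 had 2.22 in the Ihh hypertrophic chondrocyte-like population and -2.21 in the Msmp population. The Ihh value rested on 8 of 358 DMM cells with 90.4% of the UMIs. It was past 1.5-fold in 13 of 14 alternatives, and 0.38 with doublets kept. The Msmp value was -0.94 with IGF genes among the variable genes.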

How the results depend on the processing

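No paired analysis was possible because each group has 1 library. The 22 lower pairs became 10 at a Leiden resolution of 0.5 (with fewer populations), 13 with a minimum of 200 UMIs, 44 with a minimum of 1 UMI, 34 at the looser fold threshold and 11 at a fold of 2. The 10 higher pairs became 17 at a maximum of 5% mitochondrial UMIs, 6 at resolution 0.5, 17 with median-of-ratios scaling, 21 with a minimum of 1 UMI, 26 at the looser fold threshold and 4 at a fold of 2. In pooled connective tissue cells the 1 lower member became 2 after thinning or after subtracting the erythroid level and 3 at the looser fold threshold. The 1 higher member became 2 after thinning or at the looser fold threshold, and 0 with equal weight for each population or at a fold of 2. For these counts of pairs and members, the shares of all genes at the same settings are not given here. The pairs with enough UMIs also change with the minimum of UMIs and with the clustering. The counts show how the calls moved with the settings, and not how the members stand beside other genes. Of the 32 called pairs, 28 were reversed under no alternative run for them and 11 stayed past 1.5-fold in all. Igfbp3 in Kcnj15, among the 28, had a log2 ratio of 0.0 with variable genes centred by library. The log2 ratios that changed sign were those of Igfbp2 in Sfrp2 (0.13 after thinning), Igf1 in Ihh (0.21 with doublets kept), Igfbp4 in Npy (-0.01 with 1000 genes per cell) and Igfbp4 in Ptprz1 (0.27 with IGF genes among the variable genes, 0.56 without the top cells). The cause of these changes was not tested. Leaving out the barcodes found in both libraries, an alternative chosen after seeing the data, moved no count past 1.5 times. Depth limits Igf2, Igfbp2 and Igfbp3, which had 50 UMIs in only 6, 1 and 4 of the 17 populations.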

Other observations

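The tendon or ligament-like cluster of the finer clustering, chosen after the data were seen, also held the ligands. Igf1 stood at 604 CPM in sham and 498 in DMM there, a ratio of 0.826 (0.746 to 0.914). Igf2 stood at 76.9 and 30.7 CPM, a ratio of 0.399 (0.274 to 0.572), with a UMI in 23.5% of sham and 7.26% of DMM cells. Igfbp6 had 1552 and 1922 CPM, a ratio of 1.24 (1.17 to 1.31), and Igfbp7 1976 and 1761, a ratio of 0.891 (0.844 to 0.941). Igf2 in the superficial zone chondrocyte-like cells as 1 class was 12.2 CPM in sham against 2.01 in DMM, which is 6.07-fold lower (interval 4.07 to 9.35), on 164 and 29 UMIs.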
